A study of Mus musculus with 9 samples.

Results

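The genes described here encode the proteins of the spliceosome and its main RNA-binding partners. They were chosen by symbol alone, as every gene-body entry whose name starts with Srsf, Sf3a, Sf3b, Snrp, Hnrnp, Prpf or U2af, which gave 68 of 24391 entries. By name they comprise 11 SR protein genes, 9 SF3A and SF3B genes, 3 U2AF genes, 12 Snrp genes, 13 PRPF genes and 20 hnRNP genes. PRO-seq, a nuclear run-on method that maps engaged RNA polymerase, was applied to mouse erythroid cells, so each value is a measure of ongoing transcription and not of mRNA or protein. The parental line G1E lacks GATA1, a transcription factor that red cells need in order to mature, and its subline G1E-ER4 carries GATA1 fused to the ligand-binding domain of the estrogen receptor (GATA1-ER). G1E cells without treatment (n = 2 libraries) and G1E-ER4 cells without treatment (0 h, n = 3) were compared with G1E-ER4 cells that had 100 nM estradiol for 13 h (n = 2) or 24 h (n = 2). All cells were grown in medium with serum, epoetin and conditioned medium containing kit ligand, and none of the groups carries wild-type GATA1. The labels do not state whether libraries of 1 group derive from different cultures. The p-values then measure only how far these libraries spread, and that spread may be technical.

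The spliceosome removes introns in steps. U1 snRNP marks the 5′ splice site, U2AF and then U2 snRNP with its SF3A and SF3B subunits mark the 3′ splice site and branch point, and the U4/U6.U5 tri-snRNP brings in the PRPF proteins that build the catalytic centre. Every spliceosomal snRNP except U6 carries a ring of Sm proteins encoded by Snrp genes, while SR proteins mostly promote and hnRNP proteins often repress the use of nearby splice sites. Maturing red cells shrink and condense their nuclei, and programmed changes of splicing are known in the last divisions of the lineage.

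The libraries held between 37830789 and 139945759 reads in gene bodies, and their values are given as CPM, counts scaled to a common library size by TMM, a scaling to the bulk of genes. Summed over the 10 red cell marker genes, the level was 781 to 922 CPM at 0 h, 3550 to 3796 at 13 h and 6021 to 6096 at 24 h (1007 to 2083 in G1E), while 4 progenitor markers went from 868 to 1291 CPM at 0 h to 82.6 to 187 at 24 h. Most of the red cell sum at 24 h came from Zfpm1 (2748.5 to 3274.8 CPM) and Tfrc (1160.7 to 1494.6). Hba-a1 was at 0 in every library, and Epor was at 20.2 to 24.8 CPM at 0 h and 24.6 to 26.8 at 24 h. Every other red cell marker was higher in both 24 h libraries than in all 0 h libraries. The 7 mast cell and basophil markers went from between 96.4 and 139.6 CPM at 0 h to between 1.03 and 1.53 at 24 h, and the sum over 6 megakaryocyte markers was 28.0 to 38.03 CPM at 0 h, 32.2 to 60.6 at 13 h and 45.2 to 57.3 at 24 h (50.6 to 52.4 in G1E). Within that list Tubb1 went from between 0.697 and 1.15 CPM at 0 h to between 19.4 and 34.3 at 24 h, while Itga2b was at 23.2 to 31.8 and 17.1 to 23.45 CPM and Pf4 at most 0.340 and 0.0402. Granulocyte and monocyte markers summed to at most 0.362 CPM and lymphocyte markers to at most 1.72 CPM in every library. The red cell, progenitor, mast cell and megakaryocyte sums thus moved with estradiol time beside every result below, and their part in these results was not tested. In bulk samples, fewer cells of a type and less RNA per cell cannot be told apart. Of the 68 genes, 67 passed the filter on low counts, and Srsf12 was left out with 1 to 6 reads in each library. Because gene lengths were not used, a level is compared only between libraries and never between genes.

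At 24 h of estradiol, 35 of the 67 tested splicing genes had fallen and 17 had risen relative to 0 h (edgeR, adjusted p below 0.05). Among all 13825 tested genes, 30.7% fell and 29% rose, against 52.2% and 25.4% of the splicing genes. Their median log2 fold change was -0.45, beside -0.065 over all genes. The falls were steepest for the SR gene Srsf7, the Sm gene Snrpg and the hnRNP gene Hnrnpab, and the highest rises were those of Prpf18, Prpf6 and Snrpn. The groups differed in their counts, a difference that was not tested: 10 of 12 Snrp genes fell and 1 rose, whereas 7 of 20 hnRNP genes fell and 8 rose. For 62 of the 67 genes the 24 h and 0 h libraries did not overlap, which held for 74.8% of all genes. When libraries were scaled by their total count alone, the all-gene median at 24 h moved to -0.45 and the calls to 8 higher and 44 lower. Every rise below is therefore a rise relative to the bulk of genes. Shares of all genes called under that scaling are not given, so counts under it, here and below, are not set against other genes. Of the 17 rises and 35 falls, 10 and 29 kept their call with each library left out in turn, and without 24 h replicate 2 there were 11 rises.

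**Figure D1:**
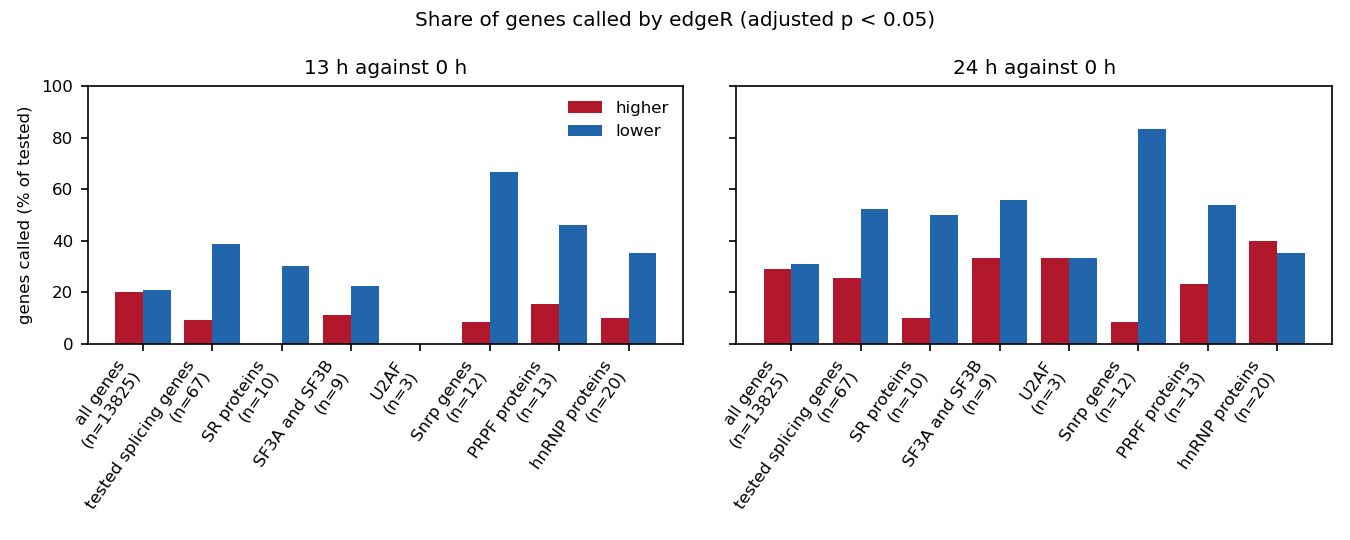
Percentage of tested genes called higher (red) or lower (blue) than at 0 h by edgeR, for all 13825 genes, the 67 tested splicing genes and each group of them, at 13 h (left) and 24 h (right). The bar for Snrp genes that fell reached 66.7% at 13 h and 83.3% at 24 h, beside 20.9% and 30.7% of all genes.

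Already at 13 h, 26 of the 67 genes had fallen and 6 had risen, while 20.9% of all genes fell and 20.1% rose. The median was -0.28, beside -0.017 over all genes. With total-count scaling 34 fell and 4 rose. Without 13 h replicate 1 there were 11 falls and 3 rises. A block on the replicate numbers of the labels gave 17 falls and 3 rises, and a block on runs of consecutive numbers that open the library titles gave 26 and 5. Replicates 1 and 2 of 0 h each share such a run with a 13 h library. Only replicate 3 of 0 h shares one with the 24 h libraries. The 13 h and 24 h comparisons use the same 0 h libraries, so their values are given side by side and are not independent of each other.

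**Figure D2:**
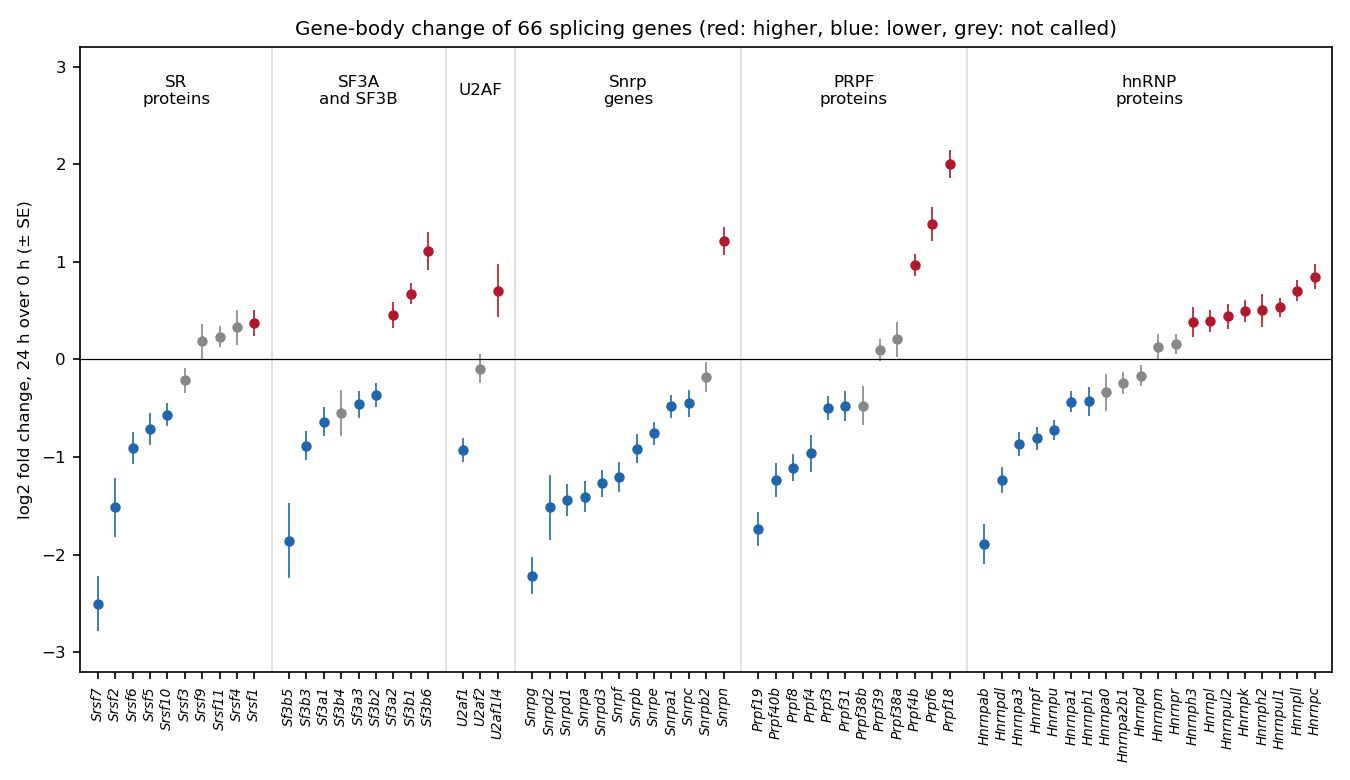
Log2 fold change of gene-body transcription at 24 h over 0 h for 66 of the tested splicing genes, grouped by role, with bars for the standard error of the fit. Points range from -2.50 for Srsf7 to 2.00 for Prpf18, and Snrpn is the only point above 0 among the Snrp genes.

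Promoter sequences, the 250 bases before the start, were available from RefSeq (GRCm38.p6) for 59 of the 68 genes. They were searched on both strands for 5 strings of letters, none of which contains another: AGATAA or TGATAA for GATA factors, CACGTG for E-boxes, CCGGAAG for ETS factors, the 10-letter palindrome of NRF1 and CCAAT for NF-Y. The ETS letters were in 18 of the 59 genes (30.5%), beside 7.83% of all 27025 genes in the table. The CCAAT letters were in 49.2% beside 37.5%, the E-box letters in 11.9% beside 6.86%, the NRF1 letters in 1.69% beside 0.877%, and the GATA letters in 10.2% beside 18.8%. The 27025 genes were not limited to those transcribed in these cells, whereas nearly all the splicing genes passed the filter on low counts. A gene counted when any of its promoters held the letters. Such matches describe letters and not bound sites. By role, 6 of 7 SF3 genes held the ETS letters and 13 of 18 hnRNP genes held CCAAT. The ETS letters occurred in 11 of 31 genes that fell at 24 h (35.5%) and 3 of 14 that rose (21.4%), and CCAAT in 17 (54.8%) and 6 (42.9%), and these shares were not tested.

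The promoters of the 3 genes with the steepest falls and of Prpf6, which rose, are printed 5′ to 3′ on the strand of the gene, with any of the letters above in capitals. They are chr17:80207306-80207555 on the minus strand for Srsf7, chr6:86371290-86371539 on the plus strand for Snrpg, chr11:51606882-51607131 on the minus strand for Hnrnpab and chr2:181601069-181601318 on the plus strand for Prpf6, all in GRCm38.p6. Srsf7 held the ETS letters once, Snrpg the ETS and CCAAT letters, Hnrnpab CCAAT 3 times and Prpf6 none of them. Prpf18, with the highest rise, had no RefSeq promoter. Snrpn, which rose as well and is not printed, held CCAAT letters beginning 195 and 53 bases before its start.
Srsf7: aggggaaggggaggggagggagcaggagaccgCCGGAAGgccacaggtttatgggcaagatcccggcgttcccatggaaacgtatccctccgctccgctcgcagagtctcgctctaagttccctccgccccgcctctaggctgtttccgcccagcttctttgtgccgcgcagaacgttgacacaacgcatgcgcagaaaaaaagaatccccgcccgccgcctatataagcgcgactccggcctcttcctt
Snrpg: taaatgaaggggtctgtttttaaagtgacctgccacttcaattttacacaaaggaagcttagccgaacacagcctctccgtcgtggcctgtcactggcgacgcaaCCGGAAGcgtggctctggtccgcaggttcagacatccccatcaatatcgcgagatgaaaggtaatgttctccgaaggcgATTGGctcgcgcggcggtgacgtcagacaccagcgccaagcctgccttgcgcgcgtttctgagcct
Hnrnpab: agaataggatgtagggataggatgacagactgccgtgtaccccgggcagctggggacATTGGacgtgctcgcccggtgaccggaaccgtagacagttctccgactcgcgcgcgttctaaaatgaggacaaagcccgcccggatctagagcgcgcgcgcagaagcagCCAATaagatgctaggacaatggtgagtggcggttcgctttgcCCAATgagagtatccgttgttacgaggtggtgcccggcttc
Prpf6: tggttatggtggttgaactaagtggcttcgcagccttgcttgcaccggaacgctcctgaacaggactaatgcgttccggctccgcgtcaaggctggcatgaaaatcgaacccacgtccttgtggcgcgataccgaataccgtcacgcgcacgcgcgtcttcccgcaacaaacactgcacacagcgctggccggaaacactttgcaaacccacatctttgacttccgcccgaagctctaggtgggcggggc

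The last 100 bases before the start of 5 SF3 genes show the ETS letters that these genes share while their transcription changed in different directions. At 24 h Sf3a1 (-0.64), Sf3a3 (-0.46) and Sf3b2 (-0.36) fell, and Sf3a2 (0.45) and Sf3b6 (1.11) rose. Sf3b3 (-0.89), which also fell, held the letters 229 bases before its start, outside the last 100 bases, and is not printed. In GRCm38.p6 the windows are chr11:4160254-4160353 on the plus strand for Sf3a1, chr10:80798635-80798734 on the plus strand for Sf3a2, chr4:124714761-124714860 on the plus strand for Sf3a3, chr19:5295456-5295555 on the minus strand for Sf3b2 and chr12:4817508-4817607 on the plus strand for Sf3b6. The letters begin 7 bases before the start in Sf3a1, 76 in Sf3a2, 90 in Sf3a3 and 13 in Sf3b2, and 85 and 70 in Sf3b6. In Sf3b2 the further capitals are CCAAT.
Sf3a1: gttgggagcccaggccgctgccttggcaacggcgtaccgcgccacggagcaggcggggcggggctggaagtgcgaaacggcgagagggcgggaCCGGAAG
Sf3a2: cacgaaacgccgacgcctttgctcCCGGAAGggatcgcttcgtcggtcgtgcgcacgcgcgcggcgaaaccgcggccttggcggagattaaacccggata
Sf3a3: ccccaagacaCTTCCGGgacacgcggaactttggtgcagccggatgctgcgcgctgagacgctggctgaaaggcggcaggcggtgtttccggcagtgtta
Sf3b2: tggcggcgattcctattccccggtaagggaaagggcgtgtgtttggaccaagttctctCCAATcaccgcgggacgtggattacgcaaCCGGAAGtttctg
Sf3b6: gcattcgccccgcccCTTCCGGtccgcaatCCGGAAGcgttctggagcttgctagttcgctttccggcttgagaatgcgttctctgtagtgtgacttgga

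SR proteins bind exonic enhancers through RNA recognition motifs and contact the splicing machinery through their arginine- and serine-rich tails. Of the 10 tested SR genes, 5 fell and 1 rose at 24 h, and 3 fell and 0 rose at 13 h (0 also at an unadjusted p below 0.05 and by DESeq2). These are 50% and 10% at 24 h, beside 30.7% and 29% of all genes. At 13 h they are 30% and 0%, beside 20.9% and 20.1%. Srsf7, whose protein carries a zinc knuckle beside its RNA recognition motif, was at 167 and 197 CPM in G1E, 177, 285 and 159 at 0 h, 87.2 and 117 at 13 h and 42.1 and 30.98 at 24 h. All libraries at 13 h lay below all those at 0 h, and both at 24 h lay below both at 13 h. The log2 fold change was -1.02 ± 0.26 (SE), edgeR adjusted p = 0.0104 at 13 h and -2.50 ± 0.28 (SE), edgeR adjusted p = 3.57e-05 at 24 h. Without 13 h replicate 1, the 13 h change was -0.81 and adjusted p = 0.0964. In Srsf2, which encodes SC35, the classical marker of nuclear speckles, the values were 144 and 158 CPM in G1E, 115, 213 and 131 at 0 h, 66.2 and 123 at 13 h and 53.5 and 53.4 at 24 h. The 0 h libraries were far apart and one of the 13 h libraries lay among them, while both 24 h libraries were lower than every other library. Its change was -1.52 ± 0.30 (SE), edgeR adjusted p = 0.00161 at 24 h.

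Srsf6 differed in its course. Its level was 118 and 129.9 CPM in G1E, 211, 207 and 161 at 0 h, 170.1 and 178 at 13 h and 118 and 88.2 at 24 h. The 0 h and 13 h libraries overlapped, the 24 h libraries were below both, and G1E resembled the 24 h libraries more than the 0 h libraries. The change was -0.91 ± 0.17 (SE), edgeR adjusted p = 0.000906 at 24 h against 0 h. Srsf1, the prototype SR protein, was at 157 and 142 CPM in G1E, 163, 138 and 122 at 0 h, 160.1 and 161 at 13 h and 190.0 and 176 at 24 h. Both 24 h values lay above all 0 h values, by a small margin. The rise was 0.37 ± 0.14 (SE), edgeR adjusted p = 0.0356, and it became -0.022 with total-count scaling. It also lost its call without 0 h replicate 2 (0.36 and adjusted p = 0.0919), 0 h replicate 3 (0.28 and adjusted p = 0.123), 24 h replicate 1 (0.31 and adjusted p = 0.165) or 24 h replicate 2 (0.44 and adjusted p = 0.0652). Srsf5 (-0.71) and Srsf10 (-0.57) fell at 24 h, and Srsf3 (-0.22), Srsf4 (0.33), Srsf9 (0.18) and Srsf11 (0.23) did not pass the test.

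**Figure D3:**
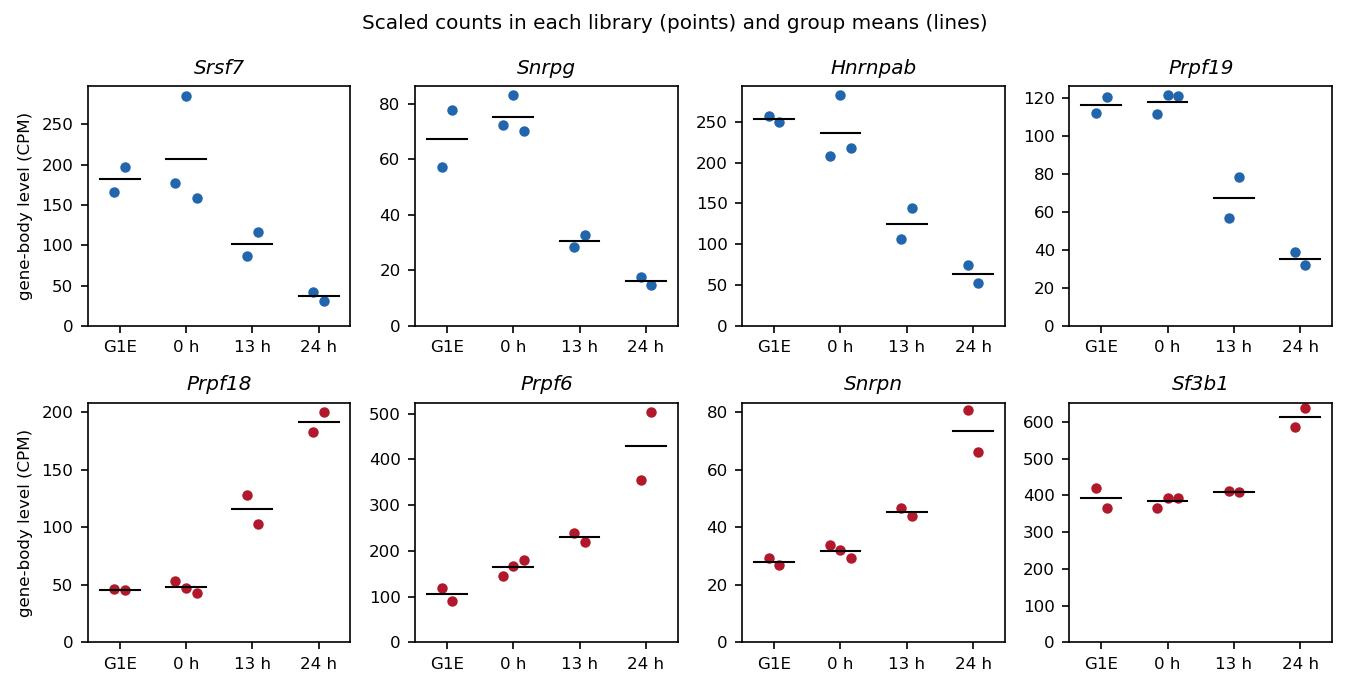
Gene-body level in CPM of 8 splicing genes in each of the 9 libraries (points) with the mean of each group (lines), on linear axes that start at 0. The upper 4 genes are lower at 24 h than in every other library, with 42.1 and 31.0 CPM for Srsf7, and the lower 4 are higher, with 183 and 200.6 CPM for Prpf18.

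The Snrp genes include the 7 that encode the Sm ring (Snrpb, Snrpd1, Snrpd2, Snrpd3, Snrpe, Snrpf and Snrpg), a subset set apart with the values known. All 7 fell at 24 h, with log2 fold changes from -2.22 to -0.76 and a median of -1.27. At 13 h their changes ran from -1.29 to -0.33, and each of the 7 passed the test there too. At 24 h the count was 7 of 7 in each of the other scalings, filters and blocks. At 13 h it was 7 with total-count scaling and with DESeq2, 6 with no filter, with the 2 groups alone and with the title-number block, and 3 with the replicate block. The 13 h call of Snrpe (-0.33) was kept in 2 of 15 alternatives and lost without any 1 of the 9 libraries. That of Snrpd1 (-0.48) was kept in 9 of 15, and was lost without any 1 of the 0 h or 13 h libraries. Snrpg was at 57.3 and 77.7 CPM in G1E, 72.4, 83.02 and 70.3 at 0 h, 28.6 and 32.9 at 13 h and 17.7 and 14.6 at 24 h. Every library at 13 h was below every untreated library, and both at 24 h were below both at 13 h. Its change was -1.29 ± 0.18 (SE), edgeR adjusted p = 0.000398 at 13 h and -2.22 ± 0.19 (SE), edgeR adjusted p = 6.79e-06 at 24 h.

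Snrpd2 had few reads, with 7.15 and 8.86 CPM in G1E, 7.04, 4.997 and 9.71 at 0 h, 2.81 and 3.302 at 13 h and 2.85 and 2.22 at 24 h. The treated libraries all lay below the 0 h libraries, which differed widely among themselves. The change was -1.25 ± 0.32 (SE), edgeR adjusted p = 0.0118 at 13 h and -1.52 ± 0.33 (SE), edgeR adjusted p = 0.00265 at 24 h. Without 13 h replicate 1 the 13 h value was -1.11 and adjusted p = 0.0856, and with the replicate block it was -0.97 and adjusted p = 0.0509. The other Sm genes were measured more tightly. Snrpd1 was at 59.1, 52.8 and 51.9 CPM at 0 h, 42.7 and 35.5 at 13 h and 22.4 and 17.9 at 24 h, and Snrpd3 at 71.4, 66.5 and 75.7, 43.7 and 45.2 and 30.04 and 29.02 CPM in the same order. For both genes the 3 time points did not overlap. Their changes at 24 h were -1.44 ± 0.17 (SE), edgeR adjusted p = 4.54e-05 for Snrpd1 and -1.27 ± 0.14 (SE), edgeR adjusted p = 3.07e-05 for Snrpd3. Snrpf (-1.21), Snrpb (-0.92) and Snrpe (-0.76) fell less far.

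Snrpn, which encodes SmN, the Sm protein that takes the place of SmB in brain and heart, went the other way. Its level was 29.2 and 26.8 CPM in G1E, 33.7, 32.1 and 29.2 at 0 h, 46.8 and 44.04 at 13 h and 80.6 and 66.2 at 24 h. The 3 time points did not overlap, and both 24 h libraries were the highest of the 9. The change was 0.52 ± 0.14 (SE), edgeR adjusted p = 0.0156 at 13 h and 1.21 ± 0.14 (SE), edgeR adjusted p = 5.07e-05 at 24 h. The 13 h call was lost without 0 h replicate 3 (0.47 and adjusted p = 0.0612) or 13 h replicate 1 (0.50 and adjusted p = 0.0726), with the replicate block (0.47 and adjusted p = 0.0717), with the title-number block (0.47 and adjusted p = 0.0529) and with total-count scaling (0.42 and adjusted p = 0.0509). Snurf, the entry that shares the Snrpn locus and start on the same strand, changed by 1.18 ± 0.14 (SE), edgeR adjusted p = 4.53e-05 at 24 h, and reads of the overlapping entries cannot be told apart.

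Among the Snrp genes of single snRNPs, Snrpa, a U1 snRNP protein that binds a stem-loop of U1 snRNA, was at 61.1, 67.4 and 70.8 CPM at 0 h, 33.6 and 37.9 at 13 h and 27.6 and 22.5 at 24 h. All 3 time points were apart, and the change at 24 h was -1.41 ± 0.16 (SE), edgeR adjusted p = 4.11e-05. Snrpc, a U1 snRNP protein that steadies pairing at the 5′ splice site, fell by 0.45 on the log2 scale at 24 h. That call was lost without either 24 h library or without replicate 2 of 0 h, with adjusted p values of at most 0.0817. It was also lost with no filter, the replicate block and the title-number block, and was kept in 9 of 15 alternatives. Of the pair of U2 proteins that bind the U2 snRNA together, Snrpa1 fell by 0.48, a call lost without 24 h replicate 2 (adjusted p = 0.0548), and Snrpb2 was at -0.18 with an edgeR adjusted p = 0.329.

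The SF3 genes encode the subunits that hold U2 snRNP on the branch point. At 24 h, 5 of 9 fell (55.6%) and 3 rose (33.3%), beside 30.7% and 29% of all genes. At 13 h 2 fell (22.2%) and 1 rose (11.1%), beside 20.9% and 20.1%. The share of rises at 24 h and of falls at 13 h was thus near that of all genes. Sf3b6, the small subunit that touches the branch-point adenosine, was at 26.1 and 28.9 CPM in G1E, 39.2, 32.2 and 35.5 at 0 h, 59.6 and 41.8 at 13 h and 63.7 and 89.7 at 24 h. Both 24 h libraries exceeded all others, and the 13 h libraries lay between them and the 0 h libraries. Its rise at 24 h was 1.11 ± 0.20 (SE), edgeR adjusted p = 0.000767. Sf3b1, the large scaffold of the SF3B complex and a frequent target of mutation in myelodysplasia, was at 419.9 and 367 CPM in G1E, 367, 393 and 392 at 0 h, 413 and 409 at 13 h and 586 and 639.5 at 24 h. The 24 h libraries stood well above the rest and the 13 h libraries above the 0 h libraries by little. The change was 0.10 ± 0.11 (SE), edgeR adjusted p = 0.511 at 13 h and 0.67 ± 0.11 (SE), edgeR adjusted p = 0.000404 at 24 h.

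Sf3a2, a zinc-finger subunit of SF3A, was at 35.9 and 37.8 CPM in G1E, 44.6, 49.2 and 41.7 at 0 h, 66.8 and 72.4 at 13 h and 58.9 and 64.8 at 24 h. Its 13 h libraries were the highest, and all treated libraries lay above all untreated ones. The rise was 0.62 ± 0.13 (SE), edgeR adjusted p = 0.00419 at 13 h and 0.45 ± 0.13 (SE), edgeR adjusted p = 0.0136 at 24 h. The 24 h call did not hold without 0 h replicate 3 (0.40 and adjusted p = 0.0546) or 24 h replicate 2 (0.39 and adjusted p = 0.0939), nor with total-count scaling (0.062, edgeR adjusted p = 0.726). Sf3a3, which helps to join SF3A to U2 snRNP, was at 108 and 132 CPM in G1E, 75.9, 75.6 and 79.6 at 0 h, 67.8 and 58.9 at 13 h and 52.2 and 59.7 at 24 h. Levels stepped down from G1E to 0 h and to 24 h, and the 24 h libraries did not overlap with those at 0 h. The 24 h change was -0.46 ± 0.14 (SE), edgeR adjusted p = 0.0169, lost without 0 h replicate 3 (-0.44 and adjusted p = 0.0522) or 24 h replicate 1 (-0.37 and adjusted p = 0.122).

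Sf3b5, the smallest subunit, had few reads, with 2.08 and 1.96 CPM in G1E, 2.104, 2.299 and 1.33 at 0 h, 1.84 and 2.31 at 13 h and 0.603 and 0.446 at 24 h. Only the 24 h libraries were apart from the rest. The change was 0.13 ± 0.35 (SE), edgeR adjusted p = 0.800 at 13 h and -1.86 ± 0.38 (SE), edgeR adjusted p = 0.00193 at 24 h. Sf3b3 (-0.89), Sf3a1 (-0.64) and Sf3b2 (-0.36) fell at 24 h, and Sf3b4 was at -0.55 without passing the test (edgeR adjusted p = 0.0694). The Sf3b2 call was lost without either 24 h library and without replicate 2 or 3 of 0 h (adjusted p at most 0.121). It was also lost with no filter, the replicate block and the title-number block, and was kept in 8 of 15 alternatives.

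Of the U2AF genes, U2af1, which reads the AG at the 3′ splice site, was at 176 and 199 CPM in G1E, 199, 176 and 187 at 0 h, 171 and 154 at 13 h and 103 and 93.1 at 24 h. The 13 h libraries lay just below those at 0 h and the 24 h libraries far below. Its change was -0.93 ± 0.12 (SE), edgeR adjusted p = 0.000110 at 24 h. U2af2, which binds the pyrimidine tract as the partner of U2af1, was at 199 and 176 CPM in G1E, 161, 202 and 171 at 0 h, 124 and 163 at 13 h and 164 and 169 at 24 h. The 0 h and 24 h libraries overlapped, and the change of -0.095 ± 0.15 (SE), edgeR adjusted p = 0.609 did not pass the test. U2af1l4, a paralog of U2af1, had low levels of 3.64 and 4.06 CPM in G1E, 3.73, 2.57 and 2.96 at 0 h, 4.43 and 3.28 at 13 h and 4.904 and 5.15 at 24 h. Both 24 h values were above all others. The rise of 0.70 ± 0.27 (SE), edgeR adjusted p = 0.0475 lost its call without G1E replicate 1 or 2, 0 h replicate 2 or 3, 13 h replicate 2, or 24 h replicate 1 or 2, with values from 0.59 to 0.74 and adjusted p values of at most 0.153.

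The PRPF genes are named after yeast splicing mutants and act from tri-snRNP assembly to the second step. Of 13, 7 fell (53.8%) and 3 rose (23.1%) at 24 h, beside 30.7% and 29% of all genes. At 13 h 6 fell (46.2%) and 2 rose (15.4%), beside 20.9% and 20.1%. Prpf18, a factor of the second catalytic step, was at 46.3 and 45.3 CPM in G1E, 53.4, 47.2 and 43.1 at 0 h, 128 and 103 at 13 h and 183 and 201 at 24 h. The treated libraries lay far above the untreated ones and those at 24 h above those at 13 h. The rise was 1.27 ± 0.14 (SE), edgeR adjusted p = 0.000115 at 13 h and 2.00 ± 0.14 (SE), edgeR adjusted p = 2.61e-06 at 24 h. Prpf6, which bridges U5 and U4/U6 in the tri-snRNP, was at 119.5 and 89.9 CPM in G1E, 144, 167 and 181 at 0 h, 239 and 219.9 at 13 h and 355 and 503 at 24 h. The 4 groups did not overlap at any step, with G1E the lowest. Its change was 0.48 ± 0.18 (SE), edgeR adjusted p = 0.0525 at 13 h and 1.38 ± 0.18 (SE), edgeR adjusted p = 8.65e-05 at 24 h. Prpf4b, a kinase that phosphorylates tri-snRNP proteins, was at 126 and 122 CPM in G1E, 119, 129 and 125 at 0 h, 189 and 198 at 13 h and 226 and 261 at 24 h. Treated and untreated libraries were apart, and the rise was 0.64 ± 0.11 (SE), edgeR adjusted p = 0.00147 at 13 h and 0.97 ± 0.11 (SE), edgeR adjusted p = 4.25e-05 at 24 h.

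Prpf19, the ubiquitin ligase at the core of the complex named after it, was at 112 and 120.2 CPM in G1E, 111, 122 and 121 at 0 h, 56.5 and 78.4 at 13 h and 38.9 and 31.8 at 24 h. The untreated libraries were close together, and the 13 h and 24 h libraries formed separate lower levels. The change was -0.81 ± 0.16 (SE), edgeR adjusted p = 0.00345 at 13 h and -1.74 ± 0.17 (SE), edgeR adjusted p = 1.68e-05 at 24 h. Prpf8, the U5 scaffold that cradles the catalytic RNA, was at 211 and 240.3 CPM in G1E, 223, 184 and 205 at 0 h, 141 and 116 at 13 h and 95.04 and 93.7 at 24 h. Every 13 h library was below every 0 h library and above both 24 h libraries. Its change was -0.67 ± 0.14 (SE), edgeR adjusted p = 0.00335 at 13 h and -1.11 ± 0.14 (SE), edgeR adjusted p = 7.08e-05 at 24 h. Prpf40b (-1.24) fell at 24 h, as did the U4/U6 proteins Prpf4 (-0.96), Prpf3 (-0.50) and Prpf31 (-0.48). The Prpf31 call was lost without 0 h replicate 3 or 24 h replicate 1 (adjusted p at most 0.148). It was also lost with the replicate block, and was kept in 12 of 15 alternatives. Prpf38a, Prpf38b and Prpf39 did not pass the test at 24 h, with 0.20, -0.47 and 0.10.

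Of the hnRNP genes, 8 of 20 rose (40%) and 7 fell (35%) at 24 h, near the shares of all genes (29% and 30.7%). The other 5 did not pass the test, and the median was -0.0205. With total-count scaling the split was 2 higher and 10 lower. Hnrnpab, a relative of AUF1 that binds AU-rich RNA, was at 257 and 249 CPM in G1E, 207, 282 and 218 at 0 h, 106 and 144 at 13 h and 74.2 and 53.02 at 24 h. The 13 h libraries lay below all untreated libraries and above both at 24 h. The change was -0.91 ± 0.20 (SE), edgeR adjusted p = 0.00483 at 13 h and -1.89 ± 0.21 (SE), edgeR adjusted p = 3.29e-05 at 24 h. Without 13 h replicate 1, the 13 h value was -0.69 and adjusted p = 0.0581. Hnrnpu, a chromatin-bound scaffold protein, was at 296 and 293 CPM in G1E, 223, 211 and 216 at 0 h, 132 and 125 at 13 h and 133 and 129 at 24 h. Its treated libraries sat at one level, with no step between 13 h and 24 h, and the change was -0.75 ± 0.10 (SE), edgeR adjusted p = 0.000364 at 13 h and -0.72 ± 0.10 (SE), edgeR adjusted p = 0.000181 at 24 h.

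Hnrnpc, which binds uridine tracts and keeps U2AF from cryptic sites, was at 308 and 316 CPM in G1E, 300.1, 275 and 259.8 at 0 h, 429 and 343 at 13 h and 474 and 527 at 24 h. Treated libraries were above all untreated ones. The rise was 0.47 ± 0.13 (SE), edgeR adjusted p = 0.0139 at 13 h and 0.85 ± 0.13 (SE), edgeR adjusted p = 0.000246 at 24 h. The 13 h call was lost without 0 h replicate 3 (0.43 and adjusted p = 0.0560) or 13 h replicate 1 (0.32 and adjusted p = 0.139), with the replicate block (0.42 and adjusted p = 0.0803) and with total-count scaling (0.37, edgeR adjusted p = 0.0521). Hnrnpa1, the best studied silencer of splice sites, was at 219 and 216 CPM in G1E, 204, 226 and 224 at 0 h, 169.5 and 189 at 13 h and 159 and 163 at 24 h. The 24 h libraries were the lowest, and the change was -0.43 ± 0.11 (SE), edgeR adjusted p = 0.00618. Gm10052 and Gm5643 are listed at the same start and changed alike (-0.55 and -0.53 at 24 h), so reads may have been split between near-identical copies and the Hnrnpa1 value is uncertain. The same holds for Hnrnpa3 (-0.87) and Gm6793 (-0.87).

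Hnrnpdl (-1.23), Hnrnpf (-0.81) and Hnrnph1 (-0.43) completed the falls. The close relatives of Hnrnph1 rose, with 0.50 for Hnrnph2 and 0.39 for Hnrnph3. Hnrnph1 lost its call without 0 h replicate 1 or 2 or 24 h replicate 1 or 2 (adjusted p at most 0.129), Hnrnph2 without 0 h replicate 2 or 24 h replicate 2 (0.156), and Hnrnph3 without 7 of the 9 libraries in turn (0.164). Of the 15 alternatives, 10 kept the call of Hnrnph1, 9 that of Hnrnph2 and 4 that of Hnrnph3. The other rises were those of Hnrnpk (0.50), Hnrnpl (0.39), its paralog Hnrnpll (0.70), Hnrnpul1 (0.53) and Hnrnpul2 (0.44). Hnrnpl lost its call without 0 h replicate 3 or 24 h replicate 2 (adjusted p at most 0.0863) and Hnrnpul2 without 24 h replicate 1 (0.0649), and the direction of Hnrnpl and Hnrnph3 turned with total-count scaling. The calls of Hnrnpl and Hnrnpul2 were also lost with total-count scaling and the replicate block, and were kept in 11 and 12 of 15 alternatives. Total-count scaling ended the calls of Hnrnpk and Hnrnpul1 too. Hnrnpa2b1 (-0.24), Hnrnpd (-0.17), Hnrnpm (0.13), Hnrnpr (0.15) and Hnrnpa0 (-0.34) did not pass.

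Taken as a sum, transcription of all 68 genes was 9871 ± 37.8 CPM (SD, n = 2) in G1E, 9895 ± 252 (SD, n = 3) at 0 h, 8542 ± 69.1 (SD, n = 2) at 13 h and 9147 ± 187 (SD, n = 2) at 24 h. As an unscaled share of gene-body reads it was 1.05% ± 0.0422, 1.07% ± 0.0571, 0.862% ± 0.00965 and 0.755% ± 0.0133 in the same order (SD). The 13 h and 24 h sums were both lower than the 0 h sum on each scale, and their order differed between the scales. Genes with many reads weigh most in such a sum.

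Between 13 h and 24 h, 12 of the 67 genes fell and 9 rose, beside 12.5% and 11.7% of all genes. Their median was -0.017, and that of all genes -0.048. Total-count scaling gave 26 falls and 1 rise. Compared with TMM, it lowers every gene at 24 h relative to 13 h. The TMM factors were 0.828 and 0.824 at 24 h and 1.007 and 1.011 at 13 h. The 12.5% and 11.7% are shares under TMM, and those under total-count scaling are not given. The further falls included 5 of the 7 Sm genes, U2af1 (-0.73 ± 0.13 (SE), edgeR adjusted p = 0.00502) and Sf3b5 (-1.98 ± 0.41 (SE), edgeR adjusted p = 0.00801). In hnRNP genes 5 rose and 1 fell, the rises being Hnrnph2 (0.60), Hnrnpul2 (0.50), Hnrnpr (0.46), Hnrnpll (0.46) and Hnrnpk (0.38). Without 24 h replicate 2 there was 1 fall and 1 rise, and of the 21 calls only 1 fall held with each library left out in turn. No 13 h library shares a run of title numbers with a 24 h library, and with those runs as a block no splicing gene was called by edgeR in either direction, while 8 were higher and 15 lower at an unadjusted p below 0.05.

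Before estradiol, few splicing genes differed between G1E-ER4 and G1E by the test. In all, 2 of the 67 were higher and 3 lower in G1E-ER4 at 0 h, beside 7.88% and 9.58% of all genes, and the median was -0.023 beside 0.036. Prpf6 was higher by 0.65 ± 0.18 (SE), edgeR adjusted p = 0.0350, and Srsf6 by 0.64 ± 0.16 (SE), edgeR adjusted p = 0.0238. Sf3a3 was lower, at -0.64 ± 0.14 (SE), edgeR adjusted p = 0.00967, Prpf38a at -0.60 ± 0.18 (SE), edgeR adjusted p = 0.0389 and Hnrnpu at -0.44 ± 0.10 (SE), edgeR adjusted p = 0.0129. Prpf38a, which takes part in activating the assembled spliceosome, was at 61.9 and 72.2 CPM in G1E, 48.9, 41.6 and 41.7 at 0 h, 61.1 and 42.9 at 13 h and 47.5 and 54.01 at 24 h, and its 0 h libraries were below both G1E libraries. None of the 5 calls held without G1E replicate 2, and each of 0 h replicate 2 (1 lower, 0 higher), 0 h replicate 3 (1 lower), 0 h replicate 1 (1 higher) and G1E replicate 1 (1 of each) also removed calls.

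The deposited elements, peaks of divergent transcription called by dREG, give a second view at the gene starts. For 40 of the 68 genes there were elements whose start annotation named that gene alone, 64 in all from 42 peaks, and for 27 genes the start element named a neighbour as well. Reads in these elements come from the whole peak, which can extend over several kilobases and is not confined to the site near the start where polymerase pauses. They were scaled apart from the gene bodies. At 24 h, 17 of the 64 rose and 16 fell (edgeR, adjusted p below 0.05), beside 29.1% and 21.1% of all start elements with 1 gene. On the strand of the gene, 10 of 22 fell and 4 rose, and on the opposite strand 3 of 22 fell and 8 rose. Shares by strand over all start elements were not computed, so this contrast is not set against other genes. Of the 20 elements counted over both strands 5 rose and 3 fell. Without 24 h replicate 2 the count of falls was 5, and without 24 h replicate 1 it was 10. At 13 h, 7 rose and 6 fell, beside 15.3% and 13.3%, with 2 falls without 13 h replicate 1 and 3 without 0 h replicate 3. Between 13 h and 24 h, 10 rose and 1 fell, beside 7.61% and 5%, with 0 of each without 24 h replicate 2, and against G1E 2 were higher and 1 lower at 0 h, beside 7.53% and 4.82%.

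**Figure D4:**
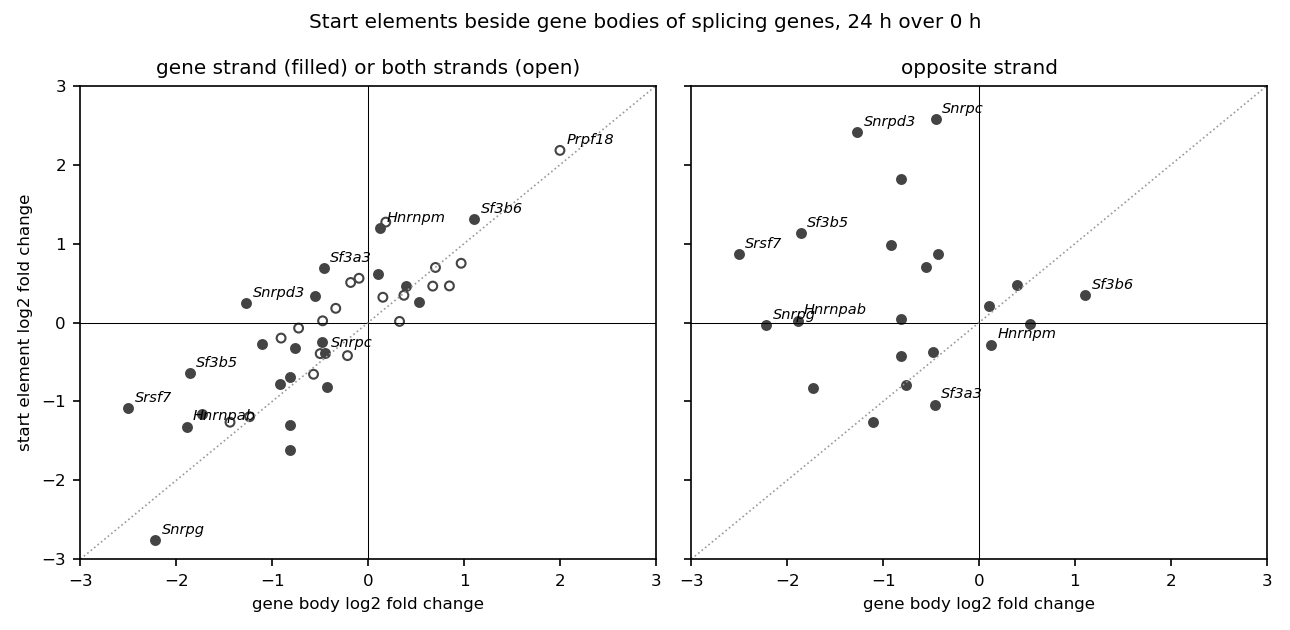
Log2 fold change at 24 h over 0 h in start elements (vertical) against that in the gene body (horizontal) for splicing genes with a start element of their own, on the gene's strand or both strands (left) and on the opposite strand (right). The dotted line marks equal values. Prpf18 and Snrpg lie near it on the left, and Snrpd3 and Snrpc stand at 2.41 and 2.58 on the right with gene bodies below 0.

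For Prpf18 the element at chr2:4571500-4573651 (mm9) held 12.3, 7.08 and 6.69 CPM at 0 h, 31.3 and 26.6 at 13 h and 36.2 and 42.6 at 24 h. Its libraries at the 3 times did not overlap, and the change at 24 h was 2.18 ± 0.28 (SE), edgeR adjusted p = 2.54e-05, beside 2.00 in the gene body. At the start of Snrpg (chr6:86319150-86323001, mm9), the gene strand held 259, 409 and 483 CPM at 0 h, 64.8 and 94.04 at 13 h and 49.4 and 63.8 at 24 h. The opposite strand of the same peak held 28.1, 29.2 and 27.2 CPM at 0 h and 31.6 and 23.4 at 24 h. The gene strand fell, with a log2 change of -2.76 ± 0.30 (SE), edgeR adjusted p = 6.62e-06, while the overlapping values of the opposite strand gave -0.037 ± 0.22 (SE), edgeR adjusted p = 0.906.

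Opposite-strand transcription rose at the starts of several genes whose bodies fell. At Snrpd3 (chr10:74976000-74981251, mm9) it was 71.98, 60.4 and 67.9 CPM at 0 h, 212 and 187 at 13 h and 317 and 393 at 24 h. The start of this gene, on the plus strand, is at 74980787, so most of the peak lies upstream of it. Every treated library was far above every 0 h library, and the change at 24 h was 2.41 ± 0.18 (SE), edgeR adjusted p = 4.17e-07, while the gene strand had 0.25 ± 0.22 (SE), edgeR adjusted p = 0.363. At Snrpc (chr17:27975350-27978551, mm9) the opposite strand held 8.13, 10.6 and 9.38 CPM at 0 h, 21.98 and 25.3 at 13 h and 43.05 and 69.1 at 24 h. The groups were apart here too, with a change of 2.58 ± 0.25 (SE), edgeR adjusted p = 3.08e-06. Opposite strands also rose at Snrpb (0.98), Sf3b5 (1.14), Hnrnph1 (0.86), Srsf7 (0.86), Sf3b4 (0.70), whose body was not called, and at one of 3 peaks of Hnrnpf (1.83). They fell at Prpf8 (-1.27), Sf3a3 (-1.04) and Snrpe (-0.79), whose bodies fell as well.

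Side by side on the gene's strand or both strands, 42 elements of 40 genes had a median of -0.028 at 24 h. The bodies of these genes had one of -0.47, in which Hnrnpf counts 3 times. Over all start elements with 1 gene the median was 0.13, and over all gene bodies -0.065. Both fell in 13 cases, 3 of them elements of Hnrnpf, and both rose in 4. In 8 cases the body fell while the element was not called. Shares for these counts over all genes were not computed. In 4 cases, Srsf9 (1.27), Hnrnpm (1.20), Prpf39 (0.61) and U2af2 (0.56), the element rose and the body was not called. Sf3a3 was the single case of opposite calls, with 0.69 ± 0.23 (SE), edgeR adjusted p = 0.0207 at the start and -0.46 in the body, but the element lost its call without 0 h replicate 3 or 24 h replicate 2. U2af2 did so without 24 h replicate 2 (adjusted p = 0.0503), and Prpf39 without 0 h replicate 2 or 24 h replicate 1 (at most 0.189). At Srsf7 the gene-strand element changed by -1.09 ± 0.37 (SE), edgeR adjusted p = 0.0255, beside -2.50 in the body, and it lost the call without either 24 h library, 0 h replicate 2 or G1E replicate 2. The 2 tables were scaled separately, so the sizes are set beside each other without a test.

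Only 4 of the 68 genes held elements away from their starts: Prpf3, Hnrnpr, U2af2 and Hnrnpl, with 14 elements of which 12 could be tested. At 24 h 5 rose and 0 fell by edgeR at adjusted p below 0.05, beside 22.5% and 30% of tested elements inside genes. At an unadjusted p below 0.05, 2 of the 12 were lower, on the gene strand of Prpf3 (-0.67) and U2af2 (-0.52). The antisense strand of U2af2 at chr7:5024600-5025851 (mm9), 64.5% of the way along the gene, held 0.107, 0.249 and 0.1701 CPM at 0 h, 2.398 and 2.66 at 13 h and 2.06 and 2.58 at 24 h. In G1E it held 0.112 and 0 CPM. The 4 treated libraries were all above the 5 untreated ones, and the log2 changes were 3.84 ± 0.55 (SE) at 13 h and 3.71 ± 0.55 (SE) at 24 h (edgeR adjusted p = 0.000150 and 8.74e-05). On the sense strand there the 24 h change was -0.52 ± 0.24 (SE), adjusted p = 0.0841 by edgeR. Antisense strands inside Hnrnpl were low as well at 0 h, with 0, 0 and 0.0189 CPM in one element and 0.0535, 0.249 and 0.0567 in the other. At 24 h they held 0.588 and 0.496 and 0.695 and 0.869 CPM, above all 0 h libraries.

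Many splicing genes share a start with a neighbour. RefSeq gave opposite strands for 18 such pairs of 17 splicing genes in which both gene bodies were tested. At 24 h the splicing gene fell and its neighbour rose in 5 pairs, both rose in 3 and both fell in 2, and no splicing gene rose beside a falling neighbour. Shares over all gene pairs with a common start were not computed, so these counts are not set against other genes. Sf3a1 (-0.64 ± 0.15 (SE), edgeR adjusted p = 0.00409) lies beside Ccdc157, which rose by 2.16 ± 0.17 (SE), edgeR adjusted p = 4.58e-06. Srsf2 (-1.52) lies beside Mfsd11, which rose by 1.94 ± 0.29 (SE), edgeR adjusted p = 0.000225. The remaining pairs of a falling splicing gene and a rising neighbour were Prpf4 (-0.96) with Cdc26 (0.56), Sf3b3 (-0.89) with Cog4 (0.50) and Prpf31 (-0.48) with Tfpt (0.40). Cog4 was not called without 0 h replicate 1 or 24 h replicate 2 (adjusted p at most 0.102), nor Tfpt without replicate 1 or 3 of 0 h or replicate 2 of 24 h (at most 0.252). In the other direction, Hnrnpdl (-1.23) and Enoph1 (-2.16 ± 0.18 (SE), edgeR adjusted p = 6.79e-06) fell together. U2af1l4 rose beside Psenen (1.70) and Lin37 (1.62), which made 2 of the 3 pairs that rose together. The call of U2af1l4 itself was kept in 3 of 15 alternatives. Whether the gene-body counts took strand into account is not given in the sources used here.

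**Figure D5:**
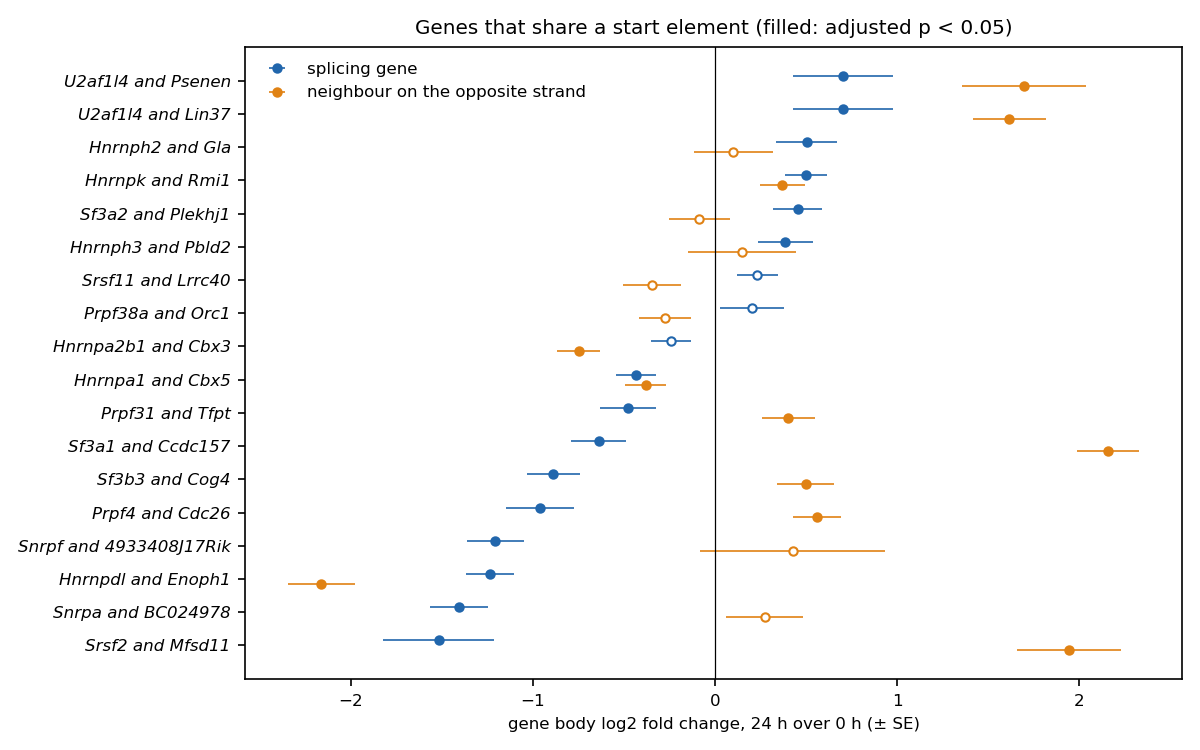
Log2 fold change of gene bodies at 24 h over 0 h, with standard errors, for 18 pairs of a splicing gene (blue) and the neighbour on the opposite strand that shares its start element (orange). Filled points passed the edgeR test, and in the rows of Sf3a1 and Srsf2 the points lie on opposite sides of 0, at -0.64 and 2.16 and at -1.52 and 1.94.

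Other genes linked to splicing by role or by name, 138 in a list of 8 groups, were read for comparison, and 135 of them were tested. At 24 h 51 fell (37.8%) and 38 rose (28.1%), with a median of -0.087, beside 30.7% and 29% of all genes and a median of -0.065. Of the factors that build snRNPs, 8 of 14 fell and 0 rose (by edgeR, and likewise 8 and 0 by DESeq2 and at an unadjusted p below 0.05), with a median of -1.19. Wdr77, part of the methylosome that modifies Sm proteins, was at 52.7 ± 10.7 CPM (SD, n = 3) at 0 h and 10.4 ± 3.18 CPM (SD, n = 2) at 24 h and changed by -2.34 ± 0.27 (SE), edgeR adjusted p = 4.80e-05. Gemin4, a subunit of the SMN complex that loads the Sm ring, was at 61.3 ± 4.802 CPM (SD, n = 3) at 0 h and 12.4 ± 1.81 CPM (SD, n = 2) at 24 h and changed by -2.31 ± 0.18 (SE), edgeR adjusted p = 3.94e-06. Both genes were lower at 24 h by more than the spread between libraries. Of the Lsm genes, relatives of the Sm genes, 5 of 10 fell and 0 rose (the same counts by DESeq2 and at an unadjusted p below 0.05), with Lsm11 at -2.13 and Lsm2 at -1.64. The Lsm genes were listed by name, and some, Lsm11 among them, do not encode spliceosome proteins. Further core snRNP proteins fell in 17 of 27 cases and rose in 5, among them Nhp2l1 (-2.15), which binds U4 snRNA, and the helicase Dhx8 (1.20).

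In 4 of the other groups more genes rose than fell, relative to the bulk of genes. With 6 to 20 tested genes each, their shares of rises were 40% to 55.6%, beside 29% of all genes. Of 20 Prp19-complex and catalytic step genes 8 rose and 3 fell, with Bud31 at 1.56, Cdc40 at 1.56 and Ppil1 at -1.77. For 9 minor spliceosome genes, which serve the rare U12-type introns, the counts were 5 and 1. Zrsr1 was at 6.51 ± 0.209 CPM (SD, n = 3) at 0 h and 51.7 ± 1.93 CPM (SD, n = 2) at 24 h and rose by 2.99 ± 0.18 (SE), edgeR adjusted p = 9.21e-07, while its relative Zrsr2 changed by -0.57. Exon junction and SR-related genes gave 8 rises and 3 falls of 17, including Acin1 (0.90) and Casc3 (1.01). Of 6 tested SR protein kinases 3 rose and 1 fell: Clk1 was at 0.94 and Clk2 at 0.76, whereas Srpk1, the main cytoplasmic kinase of SR proteins, was at -1.41. Among 32 tested splicing regulators 9 rose and 13 fell, with Rbfox2 at -3.10, Ptbp1 at -0.91, Rbm5 at 1.33 and Pcbp1 at 1.39, and Mbnl1, a driver of terminal erythroid splicing, at -0.15 without passing the test. With total-count scaling there were 6 rises and 7 falls for the Prp19 and catalytic group, 2 and 2 for the minor spliceosome, 2 and 6 for the exon junction group, 2 and 1 for the kinases and 3 and 15 for the regulators. The falls were then 12 for the assembly factors, 6 for the Lsm genes and 19 for the core group.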

How the data were processed

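PRO-seq libraries (9) of mouse G1E and G1E-ER4 cells were analysed. The authors deposited raw read counts per gene body and per dREG element, per the file headers, and a position of each element inside its gene as a percent, per the file headers. Alignment used BWA to mm9, per the submitters' processing notes, with versions not given in the sources used here. Counts were kept by filterByExpr (13825 genes, 35158 elements), scaled by TMM and tested with edgeR 4.0.16 quasi-likelihood fits over all 4 groups (R 4.3.3, 5 residual degrees of freedom), separately for genes and elements. P-values were adjusted over all tested features (Benjamini-Hochberg) and called below 0.05. Standard errors are the log2 fold change over the root of F. CPM are TMM-scaled counts, and intervals cover the spread between libraries. The fit was tested on simulated data. Alternatives were total-count scaling, DESeq2 1.42.0, no filter, each pair of groups alone, replicate and title-number blocks, and each library left out.

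The splicing genes and lists were chosen with earlier results of these data known. Genes named with values in every library were, per comparison, the 3 largest called changes each way with a mean count of at least 50, the highest and lowest 24 h change of each role, and Srsf1, Srsf2, Sf3b1, U2af1, U2af2, Hnrnpa1 and Prpf8. Snrpd1, Snrpd3, Snrpa and the start elements, elements inside genes and neighbours given with values were chosen after their values were seen, as were the printed promoters. From the other splicing genes up to 2 called changes each way per list were named, with Mbnl1, Rbfox2 and Ptbp1. Promoters came from RefSeq (GRCm38.p6) and were matched by symbol, and file coordinates are mm9. One result for a single gene is not reported here.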

Additional observations from a re-analysis of the deposited data

How the results depend on the processing

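Counts of called splicing genes are given for gene bodies as rises and falls. At 13 h against 0 h (6 and 26), the replicate block gave 3 and 17, and leaving out 1 library gave 3 to 8 and 11 to 25. At 24 h against 0 h (17 and 35), rises were 8 with total-count scaling and 10 with the replicate block, and leaving out 1 library gave 11 to 18 and 31 to 36. Between 13 h and 24 h (9 and 12), total-count scaling gave 1 and 26, the replicate block 4 rises, the title-number block 0 and 0, DESeq2 15 rises and the 2 groups alone 3 rises, and leaving out 1 library gave 1 to 8 and 1 to 12. For 0 h against G1E (2 and 3), the replicate block gave 1 and 0, the title-number block 0 and 0, and leaving out 1 library 0 to 2 and 0 to 3. Start elements between 13 h and 24 h (10 and 1) gave 2 rises with total-count scaling and 0 and 0 with gene-body scaling, which also gave 2 falls at 13 h (6) and 0 for 0 h against G1E (1). Leaving out 1 library gave 5 to 8 rises and 2 to 8 falls at 13 h, 15 to 20 and 5 to 16 at 24 h, 0 to 10 and 0 to 1 between 13 h and 24 h, and 0 to 2 and 0 to 1 for 0 h against G1E. Srsf1 at 24 h reversed to -0.022 with total-count scaling. In all 15 alternatives, 27 of 35 falls and 8 of 17 rises at 24 h kept their call, 9 of 26 and 3 of 6 at 13 h, and 0 in the other comparisons. The title-number block at 24 h gave 16 and 31, and the replicate block ended the 24 h calls of Srsf1, Sf3a2, Sf3a3 and U2af1l4. Of the 0 h libraries only replicate 3 shares a run of title numbers with the 24 h libraries. With the title-number block the 24 h change against 0 h therefore rests on that library. Same-numbered libraries at 13 h and 0 h also carry consecutive title numbers, and their deviations correlated at 0.459 and 0.444. With 2 pairs, and no label that says what a number marks, they were not treated as paired. In a group of 2 libraries the deviations from the mean mirror each other, so the 2 correlations of a comparison are not independent. The correlations were 0.063 and -0.037 for 24 h and 0 h, and -0.139 for 24 h and 13 h, where the crossed pairing, added after seeing the data, gave 8 and 10. The cause of these differences was not tested. With 2 or 3 libraries a group, a library left out of a pair leaves 1, assumed to vary like the others. Low-count genes such as Sf3b5, Snrpd2 and U2af1l4 are the least precise.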
